A study of Mus musculus with 12 samples.

Results

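RNA of mouse cortical neurospheres was set against RNA of whole mouse embryos on each of 12 2-colour arrays, and these arrays were read here as 1 comparison: which genes had more or less RNA in the cultured cells than in the embryo as a whole. All 12 arrays of the series entered. The neurospheres came from cortex of gestational day 12.5 and were grown without serum in basic FGF, EGF and LIF, and the reference was RNA of C57/Bl6 embryos of day 12. The arrays form 4 groups of 3: control cultures at 24 h, prominin cultures at 24 h, control cultures at 108 h and prominin cultures at 108 h. By their labels, the prominin cultures had received the gene of prominin-1 (CD133) in an adenovirus. The measured values of that gene, given further on, were lower than in controls at 24 h, and they cannot test the label. For the controls one label names growth medium alone and another GFP. One label of the 24 h prominin arrays reads 108 h, and their titles were followed. All groups share the culture medium and the reference RNA. Nothing in the labels makes the replicates separate cultures. The p-values then describe only how far these samples spread, which may be technical.

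A neurosphere is a floating ball of cells that grows out of neural stem and progenitor cells when growth factors are supplied. Neural stem cells of the embryonic cortex are radial glia, which first make neurons and later astrocytes and oligodendrocytes, and cultures held in FGF and EGF contain cells of these glial lineages. A whole embryo of this stage holds muscle, skeleton, liver, skin, blood and heart beside the nervous system, so a ratio of neurosphere to embryo compares 1 tissue lineage with a mixture of all of them. In such a bulk comparison fewer cells of a type and less RNA per cell cannot be told apart.

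Neurosphere RNA carried Cy5 and embryo RNA Cy3 on every array, with no dye swap, so a dye effect cannot be told apart from a difference between the RNAs. Values were read as log2 of neurosphere over embryo. The labels do not state this direction, and the high values of glial genes and low values of blood, liver and muscle genes described here are the order that it would give. The table holds 21738 probes, of which 10202 had 9 or more values once exact zeros and a top code of 16.61 were taken as missing. These probes gave 8782 genes with a single symbol. The arrays had 10404 to 14465 measured probes at 24 h and 15944 to 16598 at 108 h, and 16.75 to 40.22% of the measured values at 24 h, against 1.94 to 5.34% at 108 h, were whole-number ratios (a whole number of up to 20 to 1, or 1 to it). Over the 4532 probes with a value on every array the array median ran from −2.59 to −0.84 between arrays, with a mean of −1.6. Each array was therefore centred on that median. A centred value is relative to the median probe and a deposited value is relative to the embryo RNA, and values given without further words are centred.

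The mean ratio of a gene over the arrays ran from −6.97 to 9.88, around a median of 0.19. The middle of the ranking was narrow and both ends were long: 25% of the genes lay under −0.90 and 25% above 1.15. Beyond 2 in either direction lay 959 genes above and 986 below, and beyond 4 there were 175 above and 255 below. The mean lay above the median probe in 2570 genes (29.3% of 8782) and below it in 2269 genes (25.8%) at a limma adjusted p under 0.05. As deposited, the same test called 488 genes higher in neurosphere than in embryo RNA (5.56%) and 5443 lower (62.0%), and with centring on all measured probes of an array 1482 higher and 3251 lower. The ordering of the genes was nearly the same on these scales: the 200 highest genes shared 198 with the deposited ranking and the 200 lowest shared 197. The codes decided more. With that code kept as a value, 71 of the 200 highest genes were shared, against 196 of the 200 lowest. With exact zeros kept as values, 177 of the highest and 162 of the lowest were shared.

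**Figure D1:**
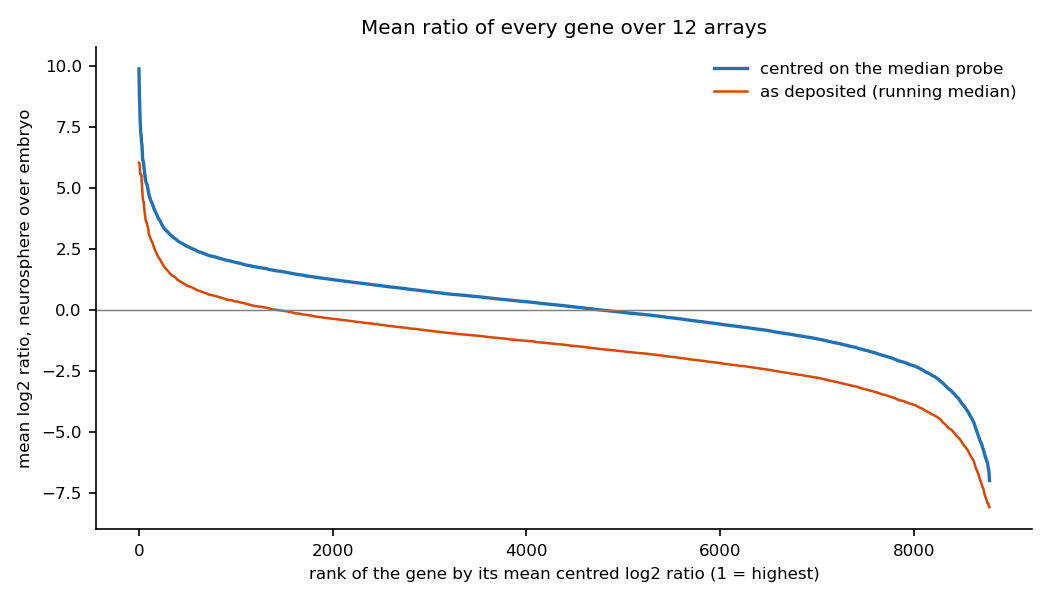
Mean log2 ratio of neurosphere to embryo RNA over 12 arrays (vertical) for 8782 genes ordered by the centred mean (horizontal), centred on the median probe (blue) and as deposited (orange, a running median of genes in that order). Both curves have a long upper and a long lower end, from 9.88 to −6.97 on the centred scale, and the deposited curve lies lower by about the mean array median of −1.6.

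The sequences just upstream of 4 genes from opposite ends are shown. They are the glial filament gene Gfap and the glial calcium-binding gene S100b at the upper end, and the embryonic globin gene Hba-x and the myeloid calcium-binding gene S100a8 at the lower end. Each run is the 100 bases before the start that RefSeq lists for the gene, on its own strand, build GRCm38.p6. Capitals mark the letters TATAAA (or TTTATA, its reverse complement) lying wholly within bases 40 to 16 before the start.
Gfap, chr11:102897201-102897300, minus strand: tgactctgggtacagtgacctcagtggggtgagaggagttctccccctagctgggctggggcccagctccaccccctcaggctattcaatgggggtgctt
S100b, chr10:76253736-76253835, plus strand: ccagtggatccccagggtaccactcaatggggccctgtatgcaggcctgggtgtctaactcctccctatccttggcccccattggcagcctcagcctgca
Hba-x, chr11:32276500-32276599, plus strand: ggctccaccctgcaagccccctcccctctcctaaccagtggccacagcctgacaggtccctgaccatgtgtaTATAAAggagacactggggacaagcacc
S100a8, chr3:90668971-90669070, plus strand: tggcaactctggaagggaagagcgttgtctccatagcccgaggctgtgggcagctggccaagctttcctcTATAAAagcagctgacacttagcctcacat
The letters are in the runs of Hba-x and S100a8, which were chosen with this in view. Among the named genes with a promoter in the set, they are in 3 of 24 of the lower end (the third is Lcn5), so 21 lack them, and in 0 of 18 of the upper end. Of 27025 promoters in RefSeq's set 2.72% hold them in that window. A match is a description of the sequence only. No comparison of the ends is drawn from this, since promoters were matched for 151 of the 200 highest genes (75.5%) and 154 of the 200 lowest (77.0%), under the 80% set for such a check, which is therefore void.

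The upper end was led by a mixture of genes of glia and genes with no known tie to the brain. The 30 highest genes with a name other than a gene model had means of 6.39 to 9.61. Those known from glia were Gfap, Gpr37l1 (a receptor of astrocytes), S100b, Slc25a18 (a mitochondrial glutamate carrier), Atp1b2 (the astrocyte subunit of the sodium pump), Acsbg1 (an acyl-CoA synthetase), Bcas1 (a protein of maturing oligodendrocytes) and Pmp2 (a myelin lipid carrier). Cntn1, an adhesion protein of axons and oligodendrocyte precursors, and Ache, acetylcholinesterase, were also among them. The highest of all named genes was Brip1, a helicase of DNA repair, followed by Il12rb1, a subunit of the interleukin-12 receptor. These ranks are a description, with no test.

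Gfap lay at 8.33, 10.04 and 8.09 in the 24 h controls and at 7.69, 8.94 and 9.22 in the 24 h prominin cultures. At 108 h it lay at 8.55, 6.69 and 8.10 in controls and at 9.03, 9.46 and 8.58 in prominin cultures. At 108 h every centred prominin value was above every control value, narrowly (8.58 against 8.55), and the other pairs of groups overlapped. As deposited, the 108 h groups overlapped too. The F test did not pass (limma adjusted p = 0.825). Every array was far above the median probe, with a mean of 6.96 on the deposited scale. S100b lay at 7.42, 9.18 and 8.07 (control, 24 h), 7.16, 7.21 and 7.19 (prominin, 24 h), 7.57, 7.58 and 7.44 (control, 108 h) and 7.65, 6.12 and 7.91 (prominin, 108 h). Its centred 24 h prominin values were under all control values of both times, and the other pairs of groups overlapped. As deposited, the 24 h prominin values overlapped the control values of both times. How many of all genes separate groups in this way was not counted. The F test of S100b did not pass either (limma adjusted p = 0.819). A second probe of Gfap, with 6 values and therefore outside the ranking, averaged 3.64.

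Slc25a18 had values of 6.38 in 1 control and 5.57 and 5.55 in 2 prominin cultures at 24 h. At 108 h it had values of 8.65, 7.87 and 8.16 in controls and 8.46, 6.48 and 7.39 in prominin cultures. All 6 values at 108 h were above all 3 at 24 h, where 3 arrays gave none and only 1 control had a value, so its groups were not tested. Atp1b2 lay at 5.49, 7.42 and 6.95 (control, 24 h), 6.04, 7.92 and 8.35 (prominin, 24 h), 7.30, 8.65 and 7.003 (control, 108 h) and 5.18, 7.75 and 7.87 (prominin, 108 h). Its groups overlapped throughout.

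Brip1 averaged 9.61 ± 1.38 (SD, n = 12), between 6.31 and 11.39, and all but 1 array (prominin 108 h replicate 3) lay at 7.86 or more. Il12rb1 averaged 9.39 ± 1.69 (n = 12), with 6.05 in control 108 h replicate 3, 6.09 in prominin 108 h replicate 3 and 9.30 or more in the other 10. The same 2 arrays stood apart for the axonemal dynein gene Dnah6 (0.64 and 1.74, against 7.57 to 9.93 on the other 8 measured arrays), for Naip5, a sensor of bacterial flagellin (1.28 and 2.92, against 7.01 to 9.59), and for Arc, the activity-regulated gene of synapses (0.77 and 1.41, against 6.08 to 9.60). Gfap, S100b and Atp1b2 did not follow these 2 arrays in this way. Over the 200 highest genes the median was 4.52 and 4.49 on these arrays and 4.29 to 5.46 on the other 10, and 9 and 10 of the 200 genes lay below the median probe there, against 0 to 4 elsewhere. What sets these arrays apart was not tested. The thioesterase gene Acot12 and the deglutamylase gene Agbl3 stood at −0.60 each in prominin 108 h replicate 3 and at 4.70 or more and 5.36 or more on their other measured arrays.

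Among the other genes of the upper end with full data were Hspe1-ps6, a pseudogene of a mitochondrial chaperonin (9.37 ± 0.79), the orphan receptor gene Gprc5c (8.38 ± 1.22), the coactivator gene Ncoa3 (7.72 ± 1.39), Dnah2, a second axonemal dynein (7.63 ± 1.18), the serotonin transporter gene Slc6a4 (7.003 ± 1.04) and Lrch4 (6.52 ± 1.28; all n = 12). Tdpx-ps2, a pseudogene, also had full data (6.84 ± 2.43, n = 12) and lay at −0.41 in control 24 h replicate 1. Dusp21, a phosphatase gene (8.56 ± 1.93, n = 11), Tnfrsf25, a death receptor gene (7.26 ± 1.94, n = 9), and Slc7a13, an amino acid transporter gene (6.39 ± 3.91, n = 10, from −0.21 to 11.30), had missing values. An odorant receptor gene, Olfr948, also ranked here (6.97 ± 3.07, n = 9). Several of these genes had further probes with too few values to enter, and those lay lower: Gprc5c had one at 1.16, Dnah2 at 2.69, Atp1b2 at 2.30 and Ache at 1.63 and −0.99. The 2 probes of Cntn1 that entered were at 7.96 and 5.67. In all, 345 genes had several probes that entered. Their probes lay on both sides of the median probe in 156 genes (45.2%), and the median range between probes was 1.32, so 1 probe is weak ground for the level of a gene.

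**Figure D2:**
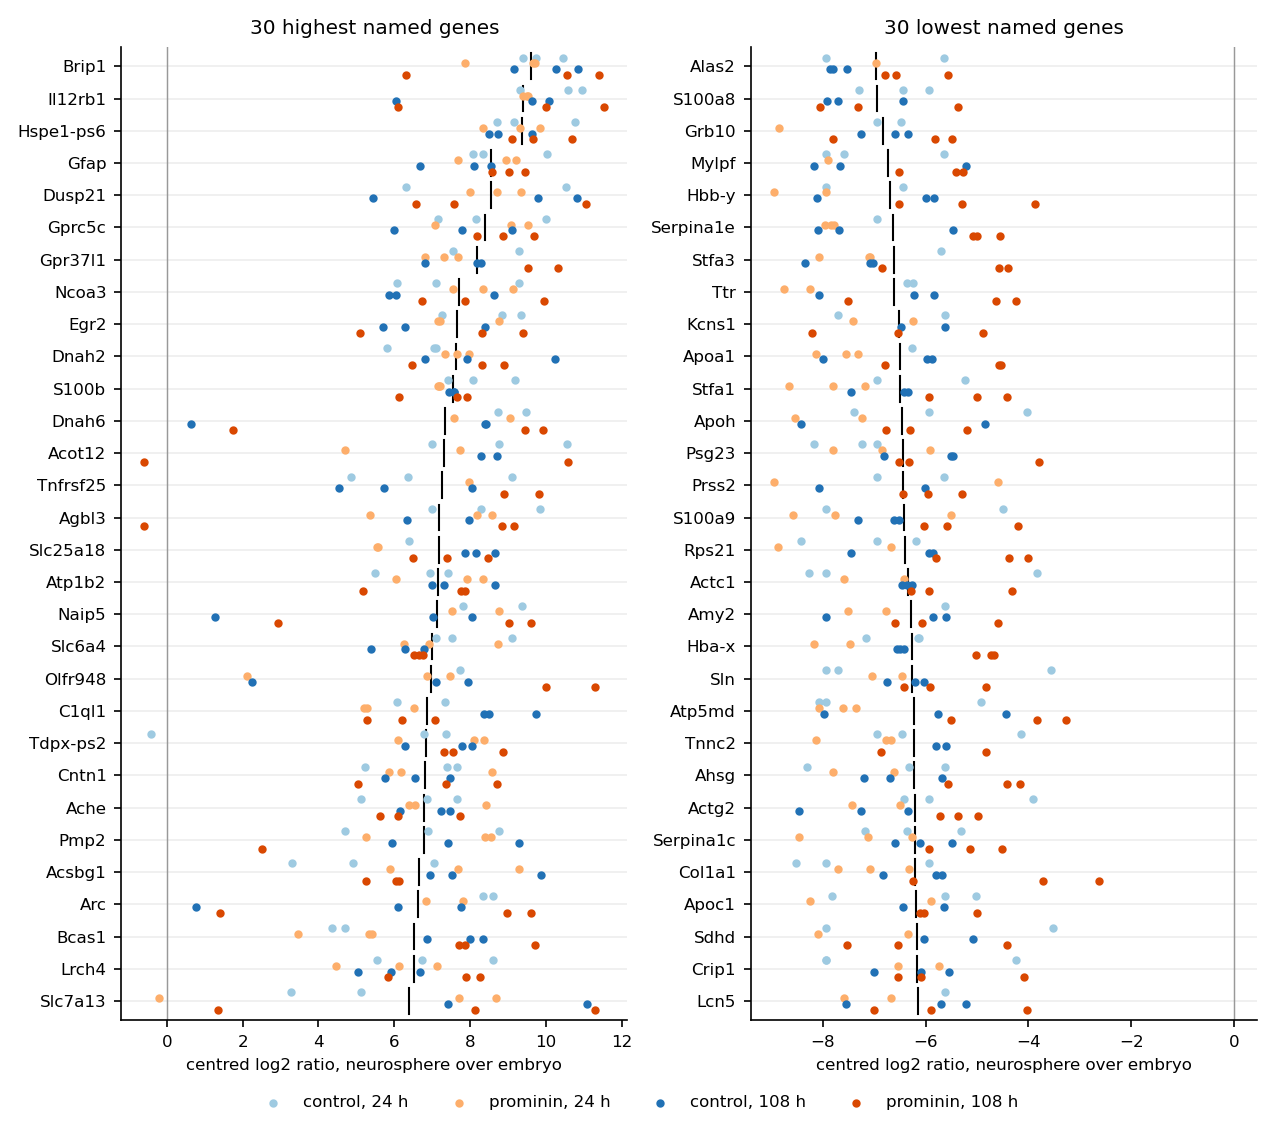
Centred log2 ratio of neurosphere to embryo RNA on each array for the 30 highest (left) and 30 lowest (right) named genes. Each point is 1 array, coloured by group, and the black bar is the mean over the arrays. Gfap and S100b have tight values, whereas Dnah6, Naip5 and Arc have 2 low arrays at 108 h, 1 control and 1 prominin.

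The 30 lowest named genes had means of −6.97 to −6.14, and many are known from blood, liver or muscle. The lowest was Alas2, the first enzyme of haem synthesis in red cells (−6.97 ± 0.91, n = 9), followed by S100a8 (−6.95 ± 0.94, n = 9) and by Grb10, an imprinted growth inhibitor (−6.84 ± 1.03, n = 9). S100a9, the partner of S100a8 in myeloid cells, lay at −6.42 ± 1.41 (n = 11), and the stefin genes Stfa1 and Stfa3 at −6.49 ± 1.29 (n = 11) and −6.62 ± 1.33 (n = 10).

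S100a8 lay at −7.29, −5.94 and −6.45 in the 24 h controls, at −6.43, −7.70 and −7.93 in the 108 h controls and at −5.38, −8.06 and −7.32 in the 108 h prominin cultures. These groups overlapped. Hba-x, the alpha-like globin of the first red cells, lay at −6.14, −6.15 and −7.17 (control, 24 h), −7.47 and −8.18 (prominin, 24 h) and −6.41, −6.56 and −6.50 (control, 108 h), and at −5.03, −4.73 and −4.68 in the 108 h prominin cultures. On the centred scale the 108 h prominin cultures were the highest group of Hba-x and did not overlap the others. As deposited, they overlapped the 108 h controls, and the F test of Hba-x did not pass (limma adjusted p = 0.3624). Hbb-y, the beta-like embryonic globin, averaged −6.69 ± 1.54 (n = 10) and was highest in prominin 108 h replicate 3 at −3.87.

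Muscle genes at this end were Mylpf (a myosin light chain of fast fibres), Actc1 (cardiac actin), Sln (an inhibitor of the muscle calcium pump), Tnnc2 (fast troponin C) and Actg2 (smooth muscle actin), with means of −6.73, −6.34, −6.26, −6.22 and −6.21. Genes of liver and yolk sac included the protease inhibitors Serpina1e and Serpina1c, the apolipoproteins Apoa1, Apoh and Apoc1, and Ahsg (fetuin). Serpina1c was measured on every array. It lay at −5.31, −6.36 and −7.18 (control, 24 h), −6.27, −7.11 and −8.47 (prominin, 24 h), −5.49, −6.60 and −6.11 (control, 108 h) and −4.52, −5.94 and −5.13 (prominin, 108 h). On the centred scale the prominin cultures were lower at 24 h than at 108 h without overlap, and the other pairs of groups overlapped. As deposited, the prominin groups overlapped too. The F test did not pass (limma adjusted p = 0.675). The highest array was still more than 4 log2 units under the median probe.

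The pancreatic enzyme genes Prss2 (trypsin, −6.43 ± 1.37, n = 9) and Amy2 (amylase, −6.28 ± 1.03, n = 9) were among the 30 as well. So was Psg23, a pregnancy-specific glycoprotein of the placenta (−6.45 ± 1.17, n = 12), whose second probe with 8 values lay at −0.71. Rps21, a ribosomal protein gene, Sdhd, a subunit of succinate dehydrogenase, and Atp5md, a small subunit of ATP synthase, lay at −6.41, −6.17 and −6.23. A second probe of Atp5md, with 5 values, lay at 3.16. The rest of the 30 were Ttr, a carrier of thyroid hormone (−6.61), the potassium channel gene Kcns1 (−6.53), the bone and skin collagen gene Col1a1 (−6.20), Crip1 (−6.16) and the lipocalin gene Lcn5 (−6.14).

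Most genes of both ends kept to one side of the median probe. Of the 200 highest genes (means 3.77 to 9.88) 177 lay above the median probe on every array that measured them, and of the 200 lowest (−6.97 to −4.32) 191 lay below it; on the deposited scale these counts were 126 and 194. Over all genes 1006 (11.5%) lay above and 1157 (13.2%) below on every measured array. These shares describe how the ends were chosen and are no test. Of the lowest 30 genes 15 had their highest value on prominin 108 h replicate 1, 7 on prominin 108 h replicate 3 and 6 on control 24 h replicate 1. In that order, these arrays had the lowest medians subtracted in centring (−2.59, −2.32 and −2.04). The part of the centring in this pattern was not tested. The median of the 200 lowest genes was −3.92 on control 24 h replicate 1 and −3.99 on prominin 108 h replicate 1, and −6.32 to −5.24 on the other 10 arrays.

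No value lay under −10 on any array, and exact zeros occurred along the whole ranking. Among probes with a deposited mean of −9 to −8, 24.2% of values were exact zeros, against 12.1% at −3 to −2 and 27.1% at 0 to 1. Alas2, S100a8 and Grb10 had 3 exact zeros each, all at 24 h, and those of S100a8 were the 3 prominin cultures. The cause of the zeros was not tested.

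**Figure D3:**
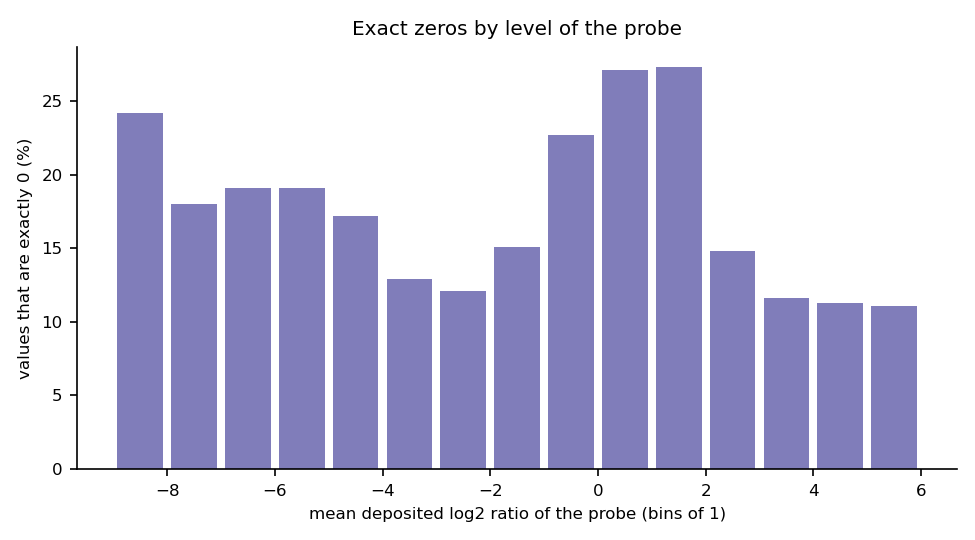
Share of values that are exactly 0 (vertical, percent) by the mean deposited log2 ratio of the probe (horizontal, bins of 1). The share is 24.2% at −9 to −8, falls to 12.1% at −3 to −2 and is 27.1% at 0 to 1.

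Gene lists written from general knowledge placed tissues along this ranking. For each list the members called above or below the median probe are given, to be read against 29.3% of all genes called above and 25.8% below. The level of a list is the median of its members' means, with the SD over arrays of the list's median.

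Of 10 measured astrocyte genes 7 were called above and 0 below, with a level of 3.17 ± 0.75 (1.55 as deposited). The members under Gfap, S100b and Atp1b2 were Glul at 5.29, Ndrg2 (3.48 ± 0.68), Slc1a2, the main glutamate transporter of mature astrocytes (2.85 ± 1.95, n = 9), and Clu (clusterin, 1.94 ± 1.40). The gap junction gene Gja1 (0.47 ± 1.39, limma adjusted p = 0.31, n = 12) and the lipoprotein gene Apoe (−0.15 ± 1.39, limma adjusted p = 0.75, n = 12) were not called.

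Of 22 genes of neural stem cells and radial glia 12 were called above and 6 below, with a level of 2.04 ± 0.61 (0.46 as deposited). Ptprz1, a receptor phosphatase of radial glia, lay between 4.01 and 6.40 on all arrays (5.25 ± 0.87). Its 108 h values (5.17, 4.44 and 5.17 in controls, 4.60, 4.34 and 4.01 in prominin cultures) were mostly under its 24 h values (6.18, 6.32 and 4.68 in controls, 5.41, 6.33 and 6.40 in prominin cultures). The secreted factor gene Metrn (4.74 ± 1.15), the endothelin receptor gene Ednrb (4.25 ± 0.67) and the receptor gene Notch1 (3.85 ± 1.24) were high as well. Members called below were Sox1, a transcription factor of neuroepithelium (−4.90 ± 1.52), the HLH inhibitor genes Id3 (−3.08 ± 1.39, n = 11) and Id1 (−1.17 ± 0.84), the EGF receptor gene Egfr (−2.20 ± 0.68), the matrix gene Tnc (−1.85 ± 1.44) and the Notch target Hes1 (−1.51 ± 1.80, n = 9). Sox1 was low on every array, from −9.07 to −2.34. Genes of 1 list thus lay at opposite ends of the ranking.

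Prom1, the mouse gene of prominin-1, was measured at 1.72 and 0.66 in 24 h controls and at −1.62 and −0.45 in 24 h prominin cultures. At 108 h it was at −2.51, −2.33 and −4.34 in controls and at −0.11 and −0.85 in prominin cultures. The cultures labelled prominin thus lay below their controls at 24 h, where each group had 2 values, and above them at 108 h. The centred values did not overlap at either time, and as deposited the 108 h groups overlapped narrowly. Neither the prominin difference (0.18, SE 0.63, limma adjusted p = 0.993) nor its interaction with time (4.80, SE 1.27, limma adjusted p = 0.791) passed. The sources used here do not say whether the probe reads the viral transcript. These values therefore cannot test the labels, and groups are named by their labels. Over all arrays Prom1 was not called (−1.09 ± 1.83, limma adjusted p = 0.107, n = 9), and 33.3% of its values were whole-number ratios.

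Of 9 oligodendrocyte genes 6 were called above and 1 below, with a level of 2.66 ± 1.23 (1.06 as deposited). Bcan, the brain proteoglycan brevican, lay at 5.76 ± 1.5 (n = 11), the myelin gene Mbp at 2.66 ± 1.40 and the lineage factor gene Sox10 at 1.76 ± 1.67 (n = 9). Nkx2-2, a transcription factor of the lineage, lay at 2.46, 3.44 and 3.17 in the 24 h controls and at 2.60 in the 1 measured prominin culture of 24 h. At 108 h it lay at 4.89, 4.40 and 3.45 in controls and 7.03, 6.65 and 6.21 in prominin cultures. The highest group was the 108 h prominin group, which did not overlap the others; with 1 prominin value at 24 h the gene was not tested between groups. The mean of Mbp rests on 3 probes with different ratios, and which of them had 9 values changed with the arrays kept. Mbp lay at 3.995 without control 24 h replicate 1, at 1.41 without prominin 24 h replicate 3 and at 1.28 without prominin 108 h replicate 3, still called. Pdgfra, the receptor that marks oligodendrocyte precursors, was called below the median probe (−3.63 ± 1.94, n = 9); this gene is also made by mesenchyme throughout the embryo.

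The genes of the neuronal list lay mostly near or below the median probe. Of 25 measured genes 2 were called above and 12 below, with a level of −0.96 ± 0.65 (−2.52 as deposited). The lowest were Stmn2 (−5.22 ± 1.55, n = 9), Crmp1 (−4.23 ± 0.83, n = 11), Snap25 (−4.15 ± 1.09) and Ina (−4.09 ± 1.28, n = 10), which encode proteins of the growth cone, the synapse and the neuronal skeleton. The secretory granule gene Scg3 (1.08 ± 1.42, n = 11) and the growth cone gene Gap43 (0.68 ± 0.77) were called above, and each lost the call without any 1 of 5 of the 24 h arrays (all but prominin replicate 3), with limma adjusted p up to 0.0767 and 0.062.

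Transcription factors that mark position in the body were read in 4 lists, and differences between the lists were not tested. Of 12 measured forebrain factors 5 were called above and 0 below (level 1.00 ± 0.44, −0.64 as deposited), with Emx2 at 4.01 ± 1.35 (n = 11) and Lhx2 at 2.48 ± 1.52. Of 6 measured factors of midbrain, hindbrain and spinal cord 3 were called above and 0 below (level 0.71 ± 0.78), led by Egr2 at 7.65 ± 1.42, which is also an immediate early gene; Pou4f1 and Pax5 lay at 1.21 and 1.17, and 22 were on the array. With all 12 values required, the level was 0 for the forebrain and 3.71 for the midbrain to spinal cord list. Of 12 measured Hox genes, which pattern the trunk and hindbrain, 1 was called above (Hoxc8, 1.65 ± 1.85, n = 9) and 7 below, down to Hoxc4 (−2.81 ± 1.65, n = 9) and Hoxa10 (−2.77 ± 2.41, n = 9), at a level of −1.05 ± 0.57. Of 17 factors of limb, heart and mesenchyme 2 were called above and 8 below (level −0.69 ± 0.72), with Twist1 lowest (−5.29 ± 1.25, n = 11) and Meox2 highest (2.13 ± 2.73).

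Genes that answer FGF and EGF signalling, both of which the medium supplies, lay high. Of 15 measured members 13 were called above and 1 below, with a level of 2.12 ± 0.75 (0.63 as deposited). The ETS factor genes Etv1 (5.20 ± 1.23, n = 11), Etv4 (3.83 ± 1.41) and Etv5 (2.67 ± 0.97, n = 11) stood beside the cyclin gene Ccnd1 (5.07 ± 1.12), the signalling inhibitor gene Spred2 (5.05 ± 2.28) and Fos (4.44 ± 1.27). Ccnd1 was between 3.48 and 6.88 on all arrays. The feedback inhibitor gene Spry1 was the member called below (−1.15 ± 1.22), and Myc was not called (−0.45 ± 0.99, limma adjusted p = 0.21, n = 12).

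The genes of the cell cycle list, in contrast, lay low. This list did not hold the cyclin gene Ccnd1, which was counted with the FGF and EGF genes and called above. Of 33 measured genes 0 were called above and 26 below, with a level of −2.08 ± 0.62 (−3.60 as deposited). The centromere gene Cenpa (−5.79 ± 1.58, n = 11), Cdc20 (−4.18 ± 0.89, n = 11), which activates the anaphase ligase, and the replication licensing genes Cdt1 (−4.04 ± 1.63, n = 10) and Mcm4 (−4.02 ± 1.54, n = 11) were among the lowest. The 6 helicase genes Mcm2 to Mcm7 were all called below, from −4.02 to −1.496. The motor gene Kif11 was the highest (0.17 ± 0.45, limma adjusted p = 0.46, n = 12).

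Targets of p53 and genes of the interferon response lay on the upper side. Of 13 p53 targets 11 were called above and 2 below (level 1.97 ± 0.38, 0.39 as deposited), with Gadd45a at 4.51 ± 1.00, the cell cycle inhibitor gene Cdkn1a at 2.78 ± 1.73 (n = 11), Fas at 2.37 ± 1.27 (n = 10) and Zmat3 at 2.30 ± 0.81 (n = 10), and with Btg2 lowest (−4.13 ± 1.00, n = 11). Of 17 interferon genes 9 were called above and 4 below (level 1.26 ± 0.69, −0.34 as deposited). Gbp2 (3.23 ± 1.51, n = 9), the peptide transporter gene Tap1 (3.10 ± 1.33, n = 10), Stat2 (2.93 ± 1.03) and the immunoproteasome gene Psmb8 (2.54 ± 0.90) led them. B2m, the light chain of MHC class I, was the lowest (−6.02 ± 0.99, n = 11), and H2-K1, a heavy chain, lay at −3.47 ± 1.37 (n = 9). Tap1, Psmb8, B2m and H2-K1 all serve antigen presentation by MHC class I.

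**Figure D4:**
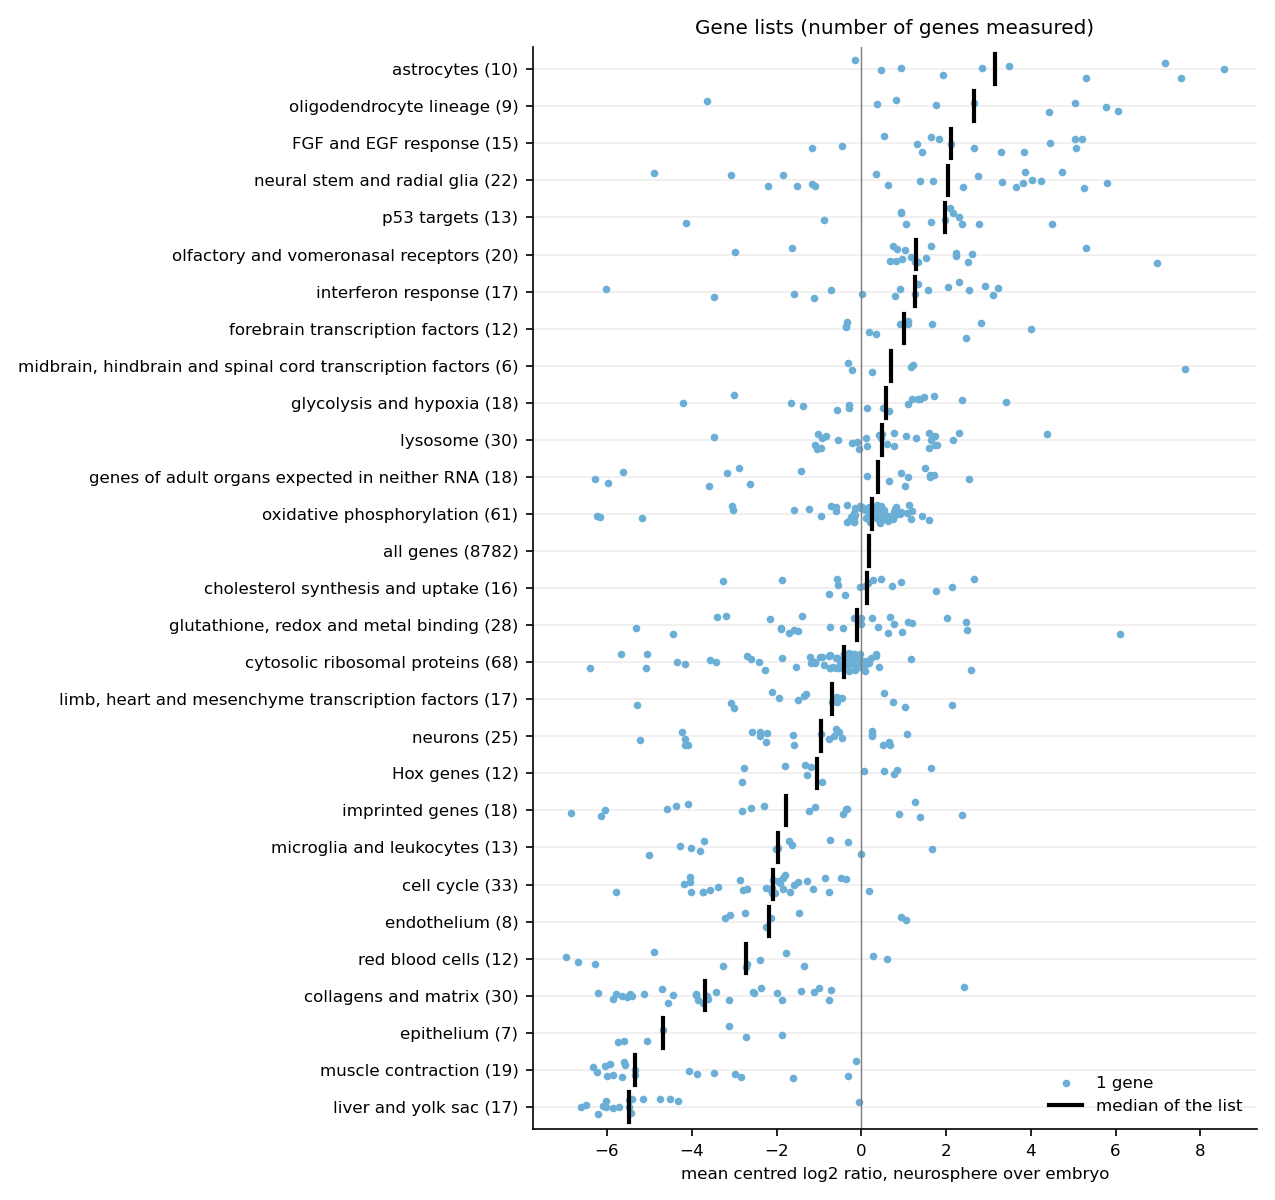
Mean centred log2 ratio of neurosphere to embryo RNA for each measured member (blue points) of 28 gene lists and the median of each list (black bars), with the median of all genes for comparison. Astrocyte genes lie highest at 3.17, all genes at 0.19, and muscle and liver genes lowest at −5.34 and −5.48; the members of ribosomal and respiratory lists are packed around the middle with a few far below.

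Genes of other tissues of the embryo were low with few exceptions. Of 17 genes of liver and yolk sac 16 were called below (level −5.48 ± 0.77, −7.15 as deposited), and 16 were among the 200 lowest genes. The exception was Apob (−0.06 ± 2.82, limma adjusted p = 0.95, n = 9). Beyond the genes named at the lower end they were Fgb (−6.09 ± 1.35, n = 10), Afp, the fetal albumin (−6.03 ± 1.14, n = 11), and Trf, transferrin (−6.01 ± 1.37, n = 12). Of 19 muscle genes 17 were called below (level −5.34 ± 0.78), among them Myl4 (−6.04 ± 0.56, n = 9) and Myl1 (−6.00 ± 1.56), whereas titin, Ttn, was not (−0.13 ± 0.87, limma adjusted p = 0.71, n = 12).

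Of 30 genes of collagen and matrix 28 were called below and 1 above (level −3.69 ± 0.40). The cartilage collagen gene Col2a1 lay at −5.86 ± 1.40 (n = 9) and the fibrillin gene Fbn1 at −5.78 ± 1.90 (n = 10), whereas Col12a1 was called above (2.42 ± 1.34, n = 11). All 7 measured epithelial genes were called below (level −4.68 ± 0.95), from the basal keratin gene Krt5 (−5.75 ± 1.27, n = 11) to Cldn4 (−1.86 ± 0.81, n = 11). Of 12 red cell genes 10 were called below (level −2.71 ± 0.95), including the factor gene Klf1 (−4.89 ± 1.63, n = 10); Epb42 and Sptb, of the red cell skeleton, lay at 0.61 and 0.27 and were not called.

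Of 8 endothelial genes 6 were called below and 0 above (level −2.18 ± 0.93), with Eng (−3.22 ± 1.26, n = 9) and Cldn5 (−3.09 ± 1.57, n = 9) lowest. Of 13 genes of microglia and leukocytes 9 were called below and 1 above (level −1.96 ± 0.90): Fcer1g lay at −4.27 ± 0.84 (n = 10) and Laptm5 at −4.01 ± 1.72 (n = 11), and Ptprc, the leukocyte antigen CD45, at 1.66 ± 1.93 (n = 11).

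Imprinted genes, many of which drive growth of the embryo and placenta, split. Of 18 measured 10 were called below and 3 above (level −1.77 ± 0.57). Mest lay at −6.13 ± 1.02 (n = 11) and Dlk1 at −6.05 ± 1.07, and Dlk1 was between −7.99 and −4.33 on all 12 arrays. Magel2 (2.37 ± 2.22), Sgce (1.37 ± 0.82) and Igf2r (1.26 ± 1.00, n = 10) were called above, and the neuronal genes Ndn and Snrpn lay near the median probe at −0.35 and −0.44.

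Genes that every cell uses lay near the median probe with a few far below it. Of 61 genes of oxidative phosphorylation 48 lay within 1 log2 unit of the median probe (level 0.24 ± 0.26), 18 were called above and 11 below. Ndufv3 (1.601 ± 1.198) and Ndufb4 (1.44 ± 0.29) were highest, and apart from Sdhd and Atp5md the gene Cox6a1 (−5.16 ± 0.99) was lowest; Sdha, Sdhb and Sdhc, the partners of Sdhd in one complex, lay at 0.83, 0.62 and 1.201. Of 68 ribosomal protein genes 47 lay within 1 unit (level −0.41 ± 0.78), 1 was called above and 27 below. Rpl32 was at 2.58 ± 1.37 (n = 11), and 6 lay below −4, of which Rps26 (−5.67 ± 0.95, n = 11) and Rpl9 (−5.07 ± 1.16) were next to Rps21. The mean ratios of this list ran from −6.41 to 2.58.

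Metabolic lists were mixed. Of 30 lysosomal genes 12 were called above and 6 below (level 0.48 ± 0.33), from Ctsf (4.38 ± 1.82, n = 11) and the tetraspanin gene Cd63, with 1.48 to 2.52 on all arrays, to Ctsk of bone-resorbing cells (−3.48 ± 1.37, n = 9). Of 28 genes of glutathione, redox and metal binding 9 were called above and 12 below (level −0.10 ± 0.36), with Mt3, the brain metallothionein, at 6.09 ± 1.05 and Prdx6, a peroxiredoxin, at −5.32 ± 1.80 (n = 10). Of 18 genes of glycolysis and hypoxia 7 were called above and 5 below (level 0.58 ± 0.32): the peptide hormone gene Adm lay at 3.41 ± 1.78 (n = 11) and the muscle isoform gene Pfkm at 1.49 ± 1.21 (n = 10), whereas Pfkp and Pfkl, the other phosphofructokinases, lay at −4.20 ± 0.84 and −1.66 ± 0.91. Of 16 cholesterol genes 4 were called above and 3 below (level 0.13 ± 0.55), from Cyp51 (2.67 ± 1.77) and Msmo1 (2.14 ± 0.73) to Nsdhl (−3.27 ± 1.24).

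A pair of lists stood for genes that neither RNA should hold, and they did not lie at a common level. Of 173 olfactory and vomeronasal receptor genes on the array 20 had enough values. Of these 10 were called above and 2 below, with a level of 1.29 ± 0.61 (−0.28 as deposited), and 21.3% of their values were whole-number ratios, against 8.09% over all genes. Of 18 genes of adult organs 4 were called above and 8 below (level 0.40 ± 1.03, −1.21 as deposited). The kidney gene Umod lay at 2.53 ± 2.25 (n = 9), and the pancreatic genes Prss1 and Ctrb1 at −5.98 ± 1.29 and −5.63 ± 0.89. The olfactory level was thus at or above those of the forebrain factors (1.00) and of interferon genes (1.26), and the adult organ level was below them; without 1 array the latter ran from −0.76 to 0.67, and differences between lists were not tested.

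The ranking was built from means over all arrays, so it did not use differences between the groups. A moderated F test over the 4 groups called 0 of 7771 genes with 2 or more values in each group (0.0%; limma, 610 at an unadjusted p under 0.05). Neither did prominin against control call any (0 of 7771, 0.0%; 385 at an unadjusted p under 0.05), nor the interaction with time (0; 480 at an unadjusted p under 0.05). With time, limma called 4 genes higher at 108 h (0.0515%) and 1 lower (0.0129%). None of the 5 belonged to the 200 highest or lowest genes.

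The adult alpha-globin gene Hba-a1 lay at −4.19, −4.62 and −5.79 in controls and −5.21, −6.83 and −6.50 in prominin cultures at 24 h. At 108 h it lay at −1.03, −2.98 and −1.91 in controls and 0.66, −0.34 and −0.28 in prominin cultures. All 108 h arrays were above all 24 h arrays, a difference of 4.54 (SE 0.50, limma adjusted p = 0.0124). Apoe, the lipoprotein gene of astrocytes, rose by 2.56 (SE 0.36, limma adjusted p = 0.0341): it lay at −2.004, −0.90 and −1.46 (control) and −1.14, −1.52 and −1.57 (prominin) at 24 h, and at 1.76, 1.47 and 1.01 (control) and 0.68, 0.70 and 1.17 (prominin) at 108 h. Apoe was thus below the median probe on all 24 h arrays and above it on all 108 h arrays. Its adjusted p was 0.0779 on the deposited scale, and 9 of 12 fits without 1 array lost the call.

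The zinc finger gene Zfp455 (difference 5.39, SE 0.51, limma adjusted p = 0.0143, n = 9) and the milk protein gene Lalba (4.24, SE 0.57, limma adjusted p = 0.0499, n = 10) were also higher at 108 h. The collagen gene Col5a3 fell by 4.78 (SE 0.64, limma adjusted p = 0.0254, n = 12), from 4.75 to 5.72 on the 24 h arrays to −2.79 to 1.94 on the 108 h arrays. Hba-a1 kept its call in all 12 fits without 1 array. Col5a3 lost it in 7 of 12 (limma adjusted p up to 0.113), and Lalba in 6 of the 8 that could be made. Zfp455 could be fitted only without an array that gave it no value, so its difference stayed at 5.39 in those 3 fits. Its call there therefore says nothing on single arrays. It lost the call with exact zeros kept as values (limma adjusted p = 0.57). The 24 h arrays held more dim values and more codes than the 108 h arrays, and the part of this in the time differences was not tested.

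Within the ends, genes with the smallest F-test p differed mostly by time, and none passed. Nrgn, neurogranin, lay at 4.82, 6.64 and 5.29 (control) and 5.84, 5.38 and 6.04 (prominin) at 24 h, and at 0.99, 2.65 and 3.48 (control) and 2.84, 3.14 and 2.91 (prominin) at 108 h, a difference of −2.997 (SE 0.50, limma adjusted p = 0.0506). Bcas1 lay at 4.37 and 4.69 (control) and 5.42, 3.46 and 5.34 (prominin) at 24 h, and at 8.34, 8.002 and 6.86 (control) and 7.87, 9.70 and 7.70 (prominin) at 108 h, a difference of 3.44 (SE 0.59, limma adjusted p = 0.0594). In both genes the 2 times did not overlap. C1ql1, a complement-like protein of synapses and oligodendrocyte precursors, was at 9.73, 8.502 and 8.36 in 108 h controls and at 5.20 to 7.34 on its other 8 arrays (F-test limma adjusted p = 0.4599). Wnt7a, a ligand of cortical progenitors (n = 10), was at 2.61 and 3.81 (control) and 5.96 and 5.96 (prominin) at 24 h. At 108 h it was at 4.83, 6.07 and 5.24 (control) and 2.46, 1.5 and 2.5 (prominin). Prominin cultures were thus above controls at 24 h and below them at 108 h. Neither the interaction (−5.98, SE 0.99, limma adjusted p = 0.6145) nor the F test passed (limma adjusted p = 0.2741).

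Among the lowest genes, Cdkn1c, an imprinted cell cycle inhibitor, lay between −6.67 and −4.15 at 24 h and between −3.88 and −3.06 at 108 h (difference 2.33, SE 0.53, limma adjusted p = 0.159). Alb, albumin, was at −1.15, −3.27 and −2.03 in 108 h prominin cultures and at −7.24 to −3.23 elsewhere, so 1 array overlapped, and Trf differed by 1.99 with time (SE 0.51, limma adjusted p = 0.228). Xist, the RNA of the inactive X, lay at −3.66 and −4.13 in 24 h controls and at −7.60 to −6.07 on its other 7 arrays (F-test limma adjusted p = 0.4599). Of the 161 lowest genes tested 21 were higher at 108 h at an unadjusted p under 0.05 (13.0%) and 4 lower (2.48%), against 4.16% and 5.78% of all genes. Of the 177 highest genes tested 15 were higher (8.47%) and 17 lower (9.60%).

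**Figure D5:**
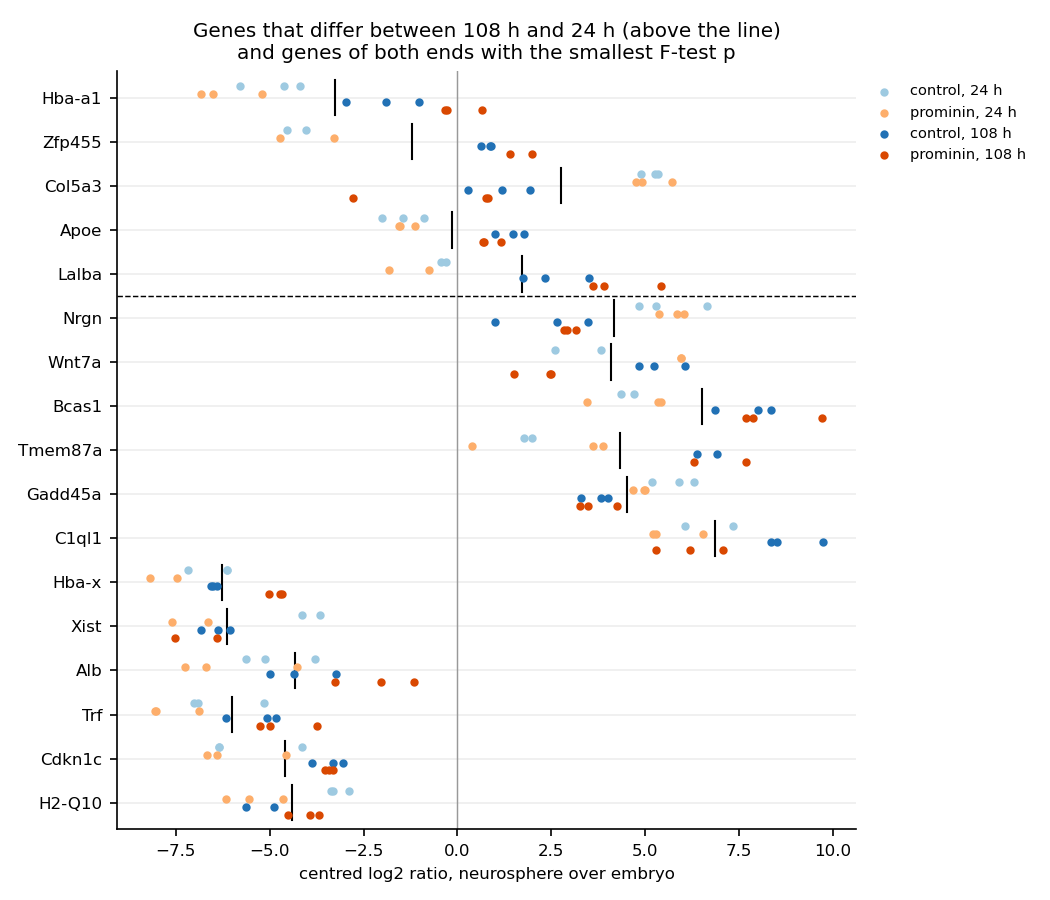
Centred log2 ratio of neurosphere to embryo RNA on each array (points, coloured by group; black bar, mean over arrays) for the 5 genes called between 108 h and 24 h (above the dashed line) and for 12 genes of the upper and lower ends with the smallest F-test p. Hba-a1, Zfp455, Apoe and Lalba lie higher at 108 h and Col5a3 lower, whereas none of the 12 passed the test.

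With time, no member of any list was called other than Apoe (astrocytes), Hba-a1 (red cells) and Lalba (adult organs). Of 66 ribosomal protein genes tested 28 were higher and 0 lower at 108 h at an unadjusted p under 0.05, none at an adjusted p, and the level was −0.93 at 24 h and 0.02 at 108 h. The shares over all genes are 4.16% higher and 5.78% lower. The 108 h level was raised by prominin 108 h replicate 3 at 1.69, the only array above 0, and was −0.32 without it. Without that array, left out after its value was seen, 23 of 65 genes were higher and 0 lower at an unadjusted p under 0.05. Its group levels were −0.77 and −1.08 at 24 h (control, prominin) and −0.52 and 0.56 at 108 h. The largest by p were Rplp1 (2.57, SE 0.41, limma adjusted p = 0.0506) and Rplp2 (2.00, SE 0.40, limma adjusted p = 0.0985), 2 proteins of the ribosomal stalk. Of 29 cell cycle genes tested 0 were higher and 9 lower, with Cdca3 at −2.91 (SE 0.63) and Cdk1 at −3.16 (SE 0.72; limma adjusted p = 0.13 and 0.159), and the level went from −1.77 to −2.80. These values are relative to the median probe of each array.

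The top code filled 8877 values at 24 h and 674 at 108 h, in 6756 probes, and no probe had it on more than 5 arrays. The 5 probes with the code on 5 arrays included those of Lpin3, a phosphatidate phosphatase, and Krtap6-3, a hair keratin-associated protein. Lpin3 had 4 measured arrays and Krtap6-3 had 3, so neither entered the ranking. The limit of 9 values also left out near neighbours of both ends. Among probes with 9 values the highest was one of Pax6 at 7.59 (the mean over the probes of this gene was 4.02) and the lowest that of Alas2, and among those with 8 values the highest was Prkd3, a protein kinase, at 6.89 and the lowest Calm4, a calmodulin of skin, at −6.51.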

How the data were processed

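The deposited table holds 1 value per probe and array. Per the labels' protocols, neurosphere RNA was labelled with Cy5 and embryo RNA with Cy3 by dendrimers; how slides were scanned and normalized is not given here. The deposited values were read as log2 ratios. Exact zeros and the top code of 16.61 were set to missing, arrays were centred on the median of 4532 probes with a value on every array, and probes with at least 9 values were kept. Symbols came from a platform annotation and, for 323 probes, from a RefSeq accession: 16943 probes had 1 symbol, 113 several and 4682 none. Probes of a gene were averaged. limma 3.58.1 in R 4.3.3 tested the mean over arrays against 0, and in a second fit with 1 mean per group the F test, 108 h against 24 h, prominin against control and their interaction (at least 2 values in every group), with Benjamini-Hochberg adjustment over all genes and a threshold of 0.05. The scripts were tested on simulated data.

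The comparison, its members and the gene lists were chosen with earlier results of these data known. The text names the 30 highest and 30 lowest genes that are no gene model, up to 4 members from one end and 2 from the other of each list, up to 6 genes of each end by the F test, genes with the top code on most arrays, and Prom1. Of the last kind, only probes with the code on 5 arrays are given, since many tie at 4. Further list members were added after their values were seen. Alternatives covered the scale, the codes, the number of values, dim ratios, single probes, subsets of arrays and each array left out. The number of arrays limits the precision. Values of some list members are not reported here.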

Additional observations from a re-analysis of the deposited data

Results flagged for a closer look

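5 genes differed between 108 h and 24 h by limma's test of that difference in the fit over the 4 groups: Hba-a1 by 4.54, Zfp455 by 5.39, Apoe by 2.56 and Lalba by 4.24 (higher at 108 h), and Col5a3 by −4.78 (lower at 108 h), on the log2 scale. In each of them every 108 h array lay on one side of every 24 h array. Hba-a1 remained past the threshold in all 12 fits without 1 array (adjusted p 0.00972 to 0.0485). The 24 h arrays hold more dim values and more codes, and the part of this in these differences was not tested.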

How the results depend on the processing

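Of 191 named genes followed through 27 alternatives, 4441 of 4615 values kept their side of the threshold. A further 136 lost the call, 27 gained it and 11 turned direction. Direction was followed only for genes called in the centred ranking, and changes of sign in other genes were not counted. Apoe, which was not called, ran from −0.32 to 0.018 without 1 array. The 11 that turned were all on the deposited scale: Gap43 −0.92, Hoxc8 −0.054, Igf2r −0.40, Ndufb4 −0.16, Pax5 −0.39, Pfkm −0.20, Pou4f1 −0.35, Scg3 −0.50, Sdhb −0.98, Sdhc −0.40 and Sgce −0.23. That scale moves every gene by about the mean array median of −1.6. It gave 488 genes higher, 5443 lower, 1 that differed among the 4 groups and 2 higher at 108 h. List levels on it were 0.46 for neural stem, 1.55 for astrocyte, 1.06 for oligodendrocyte, −2.52 for neuronal, −0.64 for forebrain factor, −0.87 for midbrain to spinal cord factor, −2.67 for Hox, −2.25 for limb and heart factor, −7.00 for muscle, −5.30 for collagen, −4.31 for red cell, −7.15 for liver, −3.75 for endothelial, −3.56 for leukocyte, −6.36 for epithelial, −3.32 for imprinted, −3.60 for cell cycle, −2.01 for ribosomal, −1.36 for respiratory, −1.02 for glycolytic, −1.48 for cholesterol, −1.05 for lysosomal, −1.70 for redox, 0.63 for FGF and EGF, 0.39 for p53, −0.34 for interferon, −1.21 for adult organ and −0.28 for receptor genes.

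With centring on all measured probes, 1482 genes were higher and 2 rose with time, and levels moved to 0.43 (forebrain), −4.24 (collagen), −0.31 (respiratory), 0.016 (glycolytic), −0.43 (cholesterol), −0.06 (lysosomal), −0.65 (redox) and 1.41 (p53). With exact zeros kept, 7970 genes were higher, 2 differed among the groups, 1 was higher at 108 h and 1 was higher with prominin, and levels were −4.07 (muscle), −2.53 (collagen), −3.17 (epithelial) and −1.17 (imprinted). Zeros then count as values, so more genes enter, and the 7970 are no share of 8782. A zero also lies above the median probe after centring, since the array medians were −2.59 to −0.84. With the top code kept, 13 genes differed among the groups, 10 were higher and 18 lower at 108 h, 2 were higher and 2 lower with prominin, and the astrocyte level was 3.96. With at least 6 values, which lets more genes enter, 3933 genes were higher, and a difference beyond 1 left 870 higher and 998 lower. Scaling gave 1 gene that differed among the groups.

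With all 12 values required, which leaves fewer genes, 1256 genes were higher, 1273 lower, 7 differed among the groups, and 17 were higher and 14 lower at 108 h. Levels were then 3.21 (neural stem), 4.38 (astrocyte), 5.05 (oligodendrocyte), −1.90 (neuronal), 0 (forebrain), 3.71 (midbrain to spinal cord), −4.07 (muscle), −2.36 (collagen), −0.32 (leukocyte), −0.29 (glycolytic) and −2.51 (adult organ). Without whole-number ratios 2 genes differed among the groups, 10 were higher and 7 lower at 108 h, and levels were 4.38 (astrocyte), 4.74 (oligodendrocyte), 0.35 (forebrain), −2.40 (imprinted), −0.29 (glycolytic) and −1.51 (adult organ).

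The 24 h arrays alone gave 1541 genes higher and 1447 lower, with levels of 2.74 (neural stem), −1.89 (neuronal), −4.26 (muscle), −0.93 (leukocyte), −1.84 (epithelial), −0.43 (glycolytic), 0.11 (lysosomal), −0.59 (redox) and 1.54 (p53). The 108 h arrays gave levels of −0.13 (Hox), −2.89 (leukocyte), 1.01 (lysosomal) and 0.34 (redox). The prominin arrays gave 1510 higher and 1507 lower, with 4.37 (astrocyte), −1.81 (neuronal) and 0.24 (forebrain), and the control arrays −0.39 (Hox), −4.09 (red cell), −0.08 (glycolytic) and 1.59 (p53).

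Without 1 array, 1 to 8 genes were higher and 0 to 6 lower at 108 h, and 0 to 1 higher with prominin. Levels ran from 1.56 to 2.66 (neural stem), 3.34 to 4.47 (astrocyte), 3.10 to 4.57 (oligodendrocyte), −1.62 to −0.76 (neuronal), −1.11 to −0.41 (Hox), −2.36 to −1.09 (imprinted), 0.056 to 0.604 (glycolytic) and −0.76 to 0.67 (adult organ). These fits still required 9 values with 1 array fewer, so genes with few values dropped out of the lists. The astrocyte and oligodendrocyte levels over all arrays, 3.17 and 2.66, lie under the ranges given here. A range thus mixes a change of genes with the loss of an array, and the part of each was not tested. Same-numbered arrays correlated at −0.063 to 0.118 in their deviations from group means, so the numbers were not taken as pairs, and with the replicate number as a block 1 gene differed among the groups, 1 was higher and 0 were lower at 108 h. The deposited values give no background signal, so dimness could be read from whole-number ratios only.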
